A study of Mus musculus with 4 samples.

Results

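Complement is a chain of secreted proteases, their substrates and their inhibitors. The complement genes followed here were C1ra, C1s1, C2, C4b, C3, Cfb, Cfd, Serping1 and Cd55, taken by exact gene name from the deposited count table. They are 9 of the 51826 genes in that table, and each had 1 entry. Of the 9, 8 averaged at least 10 raw counts per library and entered the comparisons, along with all 16734 genes that passed this filter. The remaining gene, Cfd, had 0 counts in every library.

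The cells were dermal papilla cells (DPCs), from the mesenchymal cluster in the hair bulb, and dermal sheath cells (DSCs), from the connective tissue sheath around the follicle. Both were grown from cheek vibrissal (whisker) follicles of EGFP-transgenic C57BL/6J mice aged 5 to 6 weeks, which the labels give as WT, in DMEM with fetal bovine serum. Each cell type was sequenced at passage 3, called low passage, and at passage 9, called high passage, as 1 library per combination and 4 libraries in all. Whether the passages of a cell type came from a single culture line or from pooled animals is not given in the sources used here. There were therefore no replicates, and every interval below is a 95% exact (Clopper-Pearson) interval that covers counting error only and sets 1 library against another, not 1 condition against another. The libraries held 34981284 to 47604059 counts, and the floor used for a count of 0, the level of 3 counts, was 0.0659 to 0.0837 CPM (the count scaled to library size, here with edgeR's TMM factors).

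The classical pathway starts when C1, a complex of the recognition protein C1q with the proteases C1r and C1s, binds a target. C1r cleaves C1s, and C1s then cleaves C4 and C2, whose fragments form the enzyme that splits C3. The alternative pathway amplifies this step with factor B, encoded by Cfb, after factor D, encoded by Cfd, has cleaved it. C1 inhibitor, encoded by Serping1, inactivates C1r and C1s, and CD55 (decay-accelerating factor) speeds the decay of the enzymes that split C3. The liver makes most complement protein of the plasma, while fibroblasts and other mesenchymal cells also transcribe many of its genes.

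The genes are protein-coding, and their positions in genome build GRCm38 are those of the GENCODE M21 annotation. C1ra (ENSMUSG00000055172, chr6:124512405-124523443, plus strand) and C1s1 (ENSMUSG00000038521, chr6:124530345-124542359, minus strand) are neighbours with 6901 bases between them. C4b (ENSMUSG00000073418, chr17:34728380-34743882), Cfb (ENSMUSG00000090231, chr17:34856374-34862518) and C2 (ENSMUSG00000024371, chr17:34862604-34898265) lie on the minus strand of chromosome 17, where Cfb and C2 are 85 bases apart. C3 (ENSMUSG00000024164, chr17:57203970-57228136, minus strand) is far from them on that chromosome. Serping1 (ENSMUSG00000023224, chr2:84765387-84775444, minus strand), Cd55 (ENSMUSG00000026399, chr1:130439027-130462744, minus strand) and Cfd (ENSMUSG00000061780, chr10:79890853-79892655, plus strand) lie elsewhere.

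Promoter windows from RefSeq on GRCm38.p6, 250 bases before to 50 bases after a transcript start, matched 5 of the 9 genes (C1ra, C1s1, C3, Cfd and Cd55). Shown are C1ra and C1s1, the neighbouring genes of the C1 proteases, C3, the central component, and Cd55, the gene lower at passage 9 in both cell types. Each is written 5′ to 3′ on the strand of its gene, with base 251 as the start, and capitals mark letters that matched a motif searched on both strands.
C1ra chr6:124512371-124512670, plus strand: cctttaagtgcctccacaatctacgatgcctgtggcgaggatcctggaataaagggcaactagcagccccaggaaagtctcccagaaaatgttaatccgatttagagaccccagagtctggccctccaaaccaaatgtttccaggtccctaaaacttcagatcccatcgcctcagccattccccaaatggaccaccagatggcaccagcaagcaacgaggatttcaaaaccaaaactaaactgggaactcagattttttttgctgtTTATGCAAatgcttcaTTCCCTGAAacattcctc
C1s1 chr6:124542310-124542609, minus strand: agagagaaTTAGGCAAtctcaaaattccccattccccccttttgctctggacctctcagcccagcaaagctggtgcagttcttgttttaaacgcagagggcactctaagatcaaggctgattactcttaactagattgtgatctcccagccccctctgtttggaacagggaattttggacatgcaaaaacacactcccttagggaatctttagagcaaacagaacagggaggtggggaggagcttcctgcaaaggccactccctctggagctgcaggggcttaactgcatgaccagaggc
C3 chr17:57228087-57228386, minus strand: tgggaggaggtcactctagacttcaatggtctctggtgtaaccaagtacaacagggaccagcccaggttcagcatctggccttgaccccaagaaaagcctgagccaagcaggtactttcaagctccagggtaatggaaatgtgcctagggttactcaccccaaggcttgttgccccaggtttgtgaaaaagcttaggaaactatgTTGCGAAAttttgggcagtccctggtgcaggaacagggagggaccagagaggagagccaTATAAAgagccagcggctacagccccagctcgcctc
Cd55 chr1:130462695-130462994, minus strand: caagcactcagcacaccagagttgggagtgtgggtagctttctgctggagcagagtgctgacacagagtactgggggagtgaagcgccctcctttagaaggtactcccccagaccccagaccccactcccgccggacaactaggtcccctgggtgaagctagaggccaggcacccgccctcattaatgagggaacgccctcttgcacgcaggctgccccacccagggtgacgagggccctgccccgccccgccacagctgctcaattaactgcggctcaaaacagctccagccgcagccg
The motifs were the STAT-type GAS motif (TTCNNNGAA), the C/EBP motif (TTGCNNAA), the interferon-response motif ISRE, the NF-kB motif and the TATA box (TATAAA). The background was 27025 RefSeq promoter windows of this length, with a single window taken per gene. In these, GAS letters were found in 8.47%, C/EBP in 10.8%, ISRE in 3.49%, NF-kB in 8.18% and TATAAA in 14.2%. The C1ra window held a GAS match at bases 283 to 291 and a C/EBP match on the opposite strand at bases 267 to 274, both after the start. The second of 2 C1s1 windows held a C/EBP match on the opposite strand at bases 9 to 16, and the first held no match. The C3 window held a C/EBP match at bases 206 to 213, before the start, and TATAAA at bases 265 to 270, after it. The Cd55 and Cfd windows held none of the motifs. These matches describe letters in the reference and were not measured as binding.

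**Figure D1:**
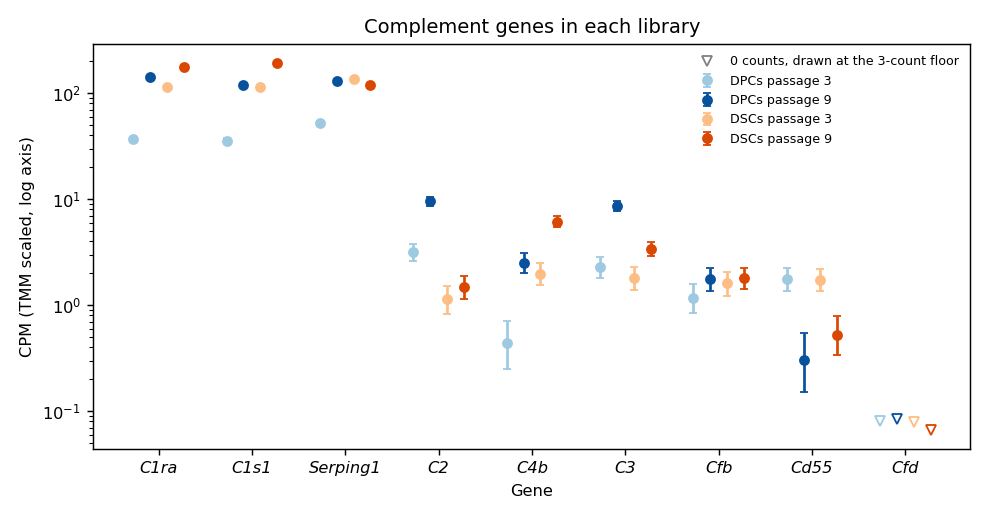
CPM (TMM scaled, log axis) of the 9 complement genes in each of the 4 libraries, with points for levels and bars for 95% exact counting intervals. C1ra, C1s1 and Serping1 lay between 35.5 and 191 CPM, while C2, C4b, C3, Cfb and Cd55 lay between 0.307 and 9.51 CPM, and Cfd (open triangles at the 3-count floor) had 0 counts.

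Levels of different genes were set side by side in FPKM, which is scaled by transcript length. Serping1 had the highest FPKM level of the 9 genes in every library, and C1ra and C1s1 came next. These 3 genes together held 94.7% of the summed FPKM of the 9 in DPCs at passage 3, 96.0% in DPCs at passage 9, 98.1% in DSCs at passage 3 and 97.7% in DSCs at passage 9. The order below them differed between libraries, and the next gene was C2 in both DPC libraries, Cfb in DSCs at passage 3 and C4b in DSCs at passage 9. The proteases and inhibitor of C1 thus had FPKM levels from 11.4 to 90.0, while the genes of C2, C4, C3, factor B and CD55 had FPKM levels from 0.0869 to 4.21. The FPKM level of C1s1 exceeded that of C3 by 23.1-fold to 109-fold.

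The first comparison asked how each gene differed between passage 9 and passage 3 of a cell type. A difference was called at 4-fold, the study's threshold, and also at 2-fold. In DPCs, C1ra, C1s1, C2, C4b, C3 and Serping1 were at least 2-fold higher at passage 9, Cd55 was at least 4-fold lower, and Cfb was 1.48-fold higher. In DSCs, only C4b was at least 2-fold higher and only Cd55 at least 2-fold lower of the 8 genes.

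Of the 8 genes, 1 was at least 4-fold higher at passage 9 in DPCs (C4b), where 5.58% of all genes tested were, and 1 was at least 4-fold lower (Cd55), where 4.36% were. At 2-fold, 6 were higher against 16.1% of all genes, and 1 was lower against 15% of all genes. In DSCs none passed 4-fold in either direction, against 2.67% of all genes higher and 1.16% lower. At 2-fold in DSCs, 1 was higher against 8.55% of all genes, and 1 was lower against 6.21%. The median log2 fold change of the 8 genes was 1.66 in DPCs, beside 0.03 over all genes tested, and 0.49 in DSCs, beside 0.00. C4b was the gene at least 2-fold higher in both cell types, as were 4.86% of all genes, and Cd55 was the gene at least 2-fold lower in both, as were 3.54%. Whether the response of a gene differed between the cell types was not tested, because no group had a second library.

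**Figure D2:**
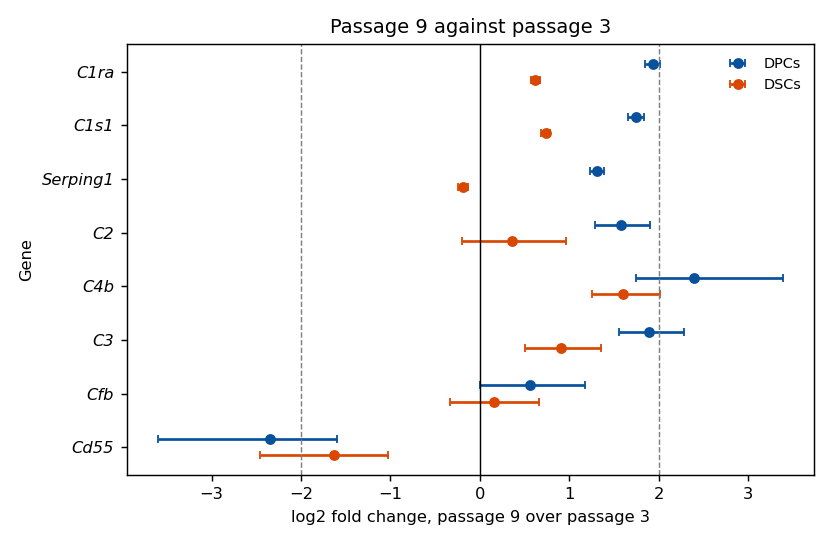
log2 fold change of passage 9 over passage 3 for the 8 complement genes with enough counts, in DPCs (blue) and DSCs (orange), with 95% exact counting intervals and dashed lines at 4-fold. For 6 of the genes the DPC point lies to the right of 1, while the DSC points of C4b and Cd55 are the ones beyond 1 in either direction.

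C1ra encodes the protease C1r. It had 1356 counts (36.9 CPM, interval 34.9 to 38.9) in DPCs at passage 3, 5055 (141 CPM, 137 to 145) in DPCs at passage 9, 4323 (114 CPM, 111 to 118) in DSCs at passage 3 and 7993 (176 CPM, 172 to 179) in DSCs at passage 9. DPCs at passage 3 stood below the other libraries, which lay within a narrower range. With passage, the log2 fold change was 1.93 (1.85 to 2.02) in DPCs, above that of 94.0% of genes tested, and 0.62 (0.57 to 0.68) in DSCs.

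C1s1 encodes the protease C1s, which C1r activates. It had 1304 counts (35.5 CPM) in DPCs at passage 3, 4283 (119 CPM) in DPCs at passage 9, 4336 (114 CPM) in DSCs at passage 3 and 8690 (191 CPM) in DSCs at passage 9. The order of the libraries was that of C1ra, with DPCs at passage 3 lowest and DSCs at passage 9 highest. The log2 fold change with passage was 1.75 (1.66 to 1.84) in DPCs and 0.74 (0.69 to 0.79) in DSCs. The ratio of the FPKM level of C1ra to that of C1s1 stayed between 0.834 and 1.09 in the 4 libraries.

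Serping1 encodes the inhibitor of both proteases. It had 1932 counts (52.5 CPM, 50.2 to 54.9) in DPCs at passage 3, 4673 (130 CPM, 127 to 134) in DPCs at passage 9, 5149 (136 CPM, 132 to 140) in DSCs at passage 3 and 5450 (120 CPM, 117 to 123) in DSCs at passage 9. DPCs at passage 3 were again the low library, but the DSC libraries did not follow the proteases. Its log2 fold change with passage was 1.31 (1.23 to 1.39) in DPCs, or 1.61 in deposited FPKM with 0.1 added, and -0.18 (-0.24 to -0.13) in DSCs.

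The balance of inhibitor to proteases differed accordingly. The FPKM level of Serping1 over the sum of C1ra and C1s1 was 1.17 in DPCs at passage 3, 1.08 in DPCs at passage 9, 1.02 in DSCs at passage 3 and 0.573 in DSCs at passage 9. Of the counts of these 3 genes, Serping1 had 42.1% (interval 40.6 to 43.5) in DPCs at passage 3, 33.4% (32.6 to 34.1) in DPCs at passage 9, 37.3% (36.5 to 38.1) in DSCs at passage 3 and 24.6% (24.1 to 25.2) in DSCs at passage 9. The share was lower at passage 9 in both cell types, and the counting intervals of the 4 libraries did not overlap. The measures did not give the same order of libraries. DSCs at passage 3 were above DPCs at passage 9 by count share and below them by FPKM ratio.

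C4b encodes complement C4, a substrate of C1s. It had 16 counts (0.435 CPM, 0.249 to 0.707) in DPCs at passage 3, 90 (2.51 CPM, 2.02 to 3.08) in DPCs at passage 9, 75 (1.98 CPM, 1.56 to 2.48) in DSCs at passage 3 and 278 (6.10 CPM, 5.41 to 6.87) in DSCs at passage 9. DSCs at passage 9 were the high library and DPCs at passage 3 the low one, and the other libraries had overlapping intervals. The log2 fold change with passage was 2.40 (1.75 to 3.40) in DPCs and 1.60 (1.25 to 2.01) in DSCs. The interval in DPCs reached below 4-fold, and the change computed from deposited FPKM was 1.68 with 0.1 added and 0.54 with 1 added.

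C2 encodes the other substrate of C1s. It had 116 counts (3.15 CPM, 2.61 to 3.78) in DPCs at passage 3, 341 (9.51 CPM, 8.53 to 10.6) in DPCs at passage 9, 43 (1.13 CPM, 0.821 to 1.53) in DSCs at passage 3 and 67 (1.47 CPM, 1.14 to 1.87) in DSCs at passage 9. Both DPC libraries were above both DSC libraries. Passage 9 over passage 3 gave a log2 fold change of 1.58 (1.28 to 1.91) in DPCs and 0.36 (-0.20 to 0.96) in DSCs, where the interval included 0.

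C3 encodes the component on which the pathways converge. It had 84 counts (2.28 CPM, 1.82 to 2.83) in DPCs at passage 3, 309 (8.62 CPM, 7.68 to 9.63) in DPCs at passage 9, 68 (1.79 CPM, 1.39 to 2.27) in DSCs at passage 3 and 155 (3.40 CPM, 2.89 to 3.98) in DSCs at passage 9. The passage 3 libraries had overlapping intervals, and DPCs at passage 9 were highest. Its log2 fold change with passage was 1.89 (1.56 to 2.28) in DPCs and 0.90 (0.50 to 1.36) in DSCs. The DSC value was a 1.87-fold difference and below the 2-fold rule. In deposited FPKM the DPC value was 1.84 with 0.1 added and 0.95, below 2-fold, with 1 added.

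Cfb encodes factor B, the protease of the alternative pathway. It had 43 counts (1.17 CPM) in DPCs at passage 3, 63 (1.76 CPM) in DPCs at passage 9, 61 (1.61 CPM) in DSCs at passage 3 and 82 (1.80 CPM) in DSCs at passage 9. The intervals of the 4 libraries, which spanned 0.846 to 2.25 CPM, overlapped. Passage 9 over passage 3 gave a log2 fold change of 0.57 (0.01 to 1.18) in DPCs, where the interval on halved counts (-0.25 to 1.47) included 0, and 0.16 (-0.33 to 0.66) in DSCs. Cfd, which encodes the protease that activates factor B and is known as the adipocyte product adipsin, had 0 counts in each library, with upper limits of the exact interval of 0.0810 to 0.103 CPM.

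The FPKM level of C3 over that of Cfb was 1.05 in DPCs at passage 3, 2.96 in DPCs at passage 9, 0.435 in DSCs at passage 3 and 0.581 in DSCs at passage 9. DPCs at passage 9 thus had the highest ratio of the 4 libraries.

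Cd55 encodes a membrane regulator. It had 65 counts (1.77 CPM, 1.36 to 2.25) in DPCs at passage 3, 11 (0.307 CPM, 0.153 to 0.549) in DPCs at passage 9, 66 (1.74 CPM, 1.35 to 2.22) in DSCs at passage 3 and 24 (0.527 CPM, 0.338 to 0.784) in DSCs at passage 9. The passage 3 libraries were above the passage 9 libraries in both cell types, and their intervals did not overlap those of passage 9. Its log2 fold change with passage was -2.34 (-3.60 to -1.59) in DPCs and -1.63 (-2.46 to -1.03) in DSCs. The value in DPCs was -1.85, below 4-fold in size, with a prior count of 10, and the counts at passage 9 were few.

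The second comparison asked how the cell types differed at each passage. At passage 3, C1ra, C1s1, Serping1 and C4b were at least 2-fold lower in DPCs than in DSCs, C2 was at least 2-fold higher, and C3, Cfb and Cd55 differed by no more than their counting intervals. At passage 9, C2 was at least 4-fold higher and C3 at least 2-fold higher in DPCs, while C4b was at least 2-fold lower.

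At passage 3, 0 of the 8 passed 4-fold towards DPCs, against 1.52% of all genes, and 1 was at least 4-fold lower (C4b), against 2.77%. At 2-fold, 1 was higher against 5.43% of all genes, and 4 were lower against 7.86%. At passage 9, 1 was at least 4-fold higher (C2) against 2.5% of all genes, and 0 were at least 4-fold lower against 3.91%. At 2-fold, 2 were higher (C2 and C3) against 9.11%, and 1 was lower (C4b) against 11%. The median log2 difference of the 8 genes, DPCs over DSCs, was -0.91 at passage 3, beside 0.00 over all genes, and -0.18 at passage 9, beside -0.01.

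**Figure D3:**
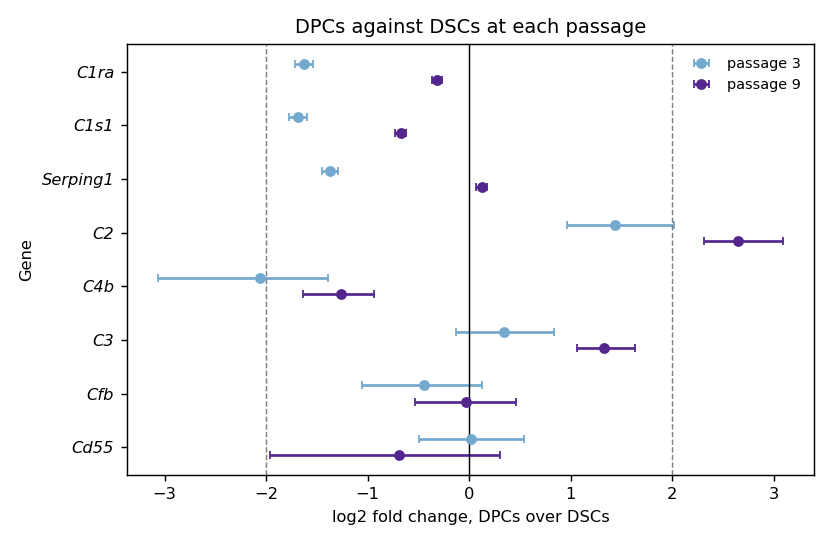
log2 fold change of DPCs over DSCs for the 8 complement genes at passage 3 (light blue) and passage 9 (purple), with 95% exact counting intervals and dashed lines at 4-fold. The passage 3 points of C1ra, C1s1 and Serping1 lie between -1.69 and -1.37 and their passage 9 points between -0.68 and 0.12, while both C2 points lie to the right of 0.

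For the C1 proteases and their inhibitor, the difference between cell types was smaller at passage 9. The log2 fold change of DPCs over DSCs was -1.63 (-1.72 to -1.54) at passage 3 and -0.32 (-0.37 to -0.27) at passage 9 for C1ra. For C1s1 it was -1.69 (-1.78 to -1.60) and -0.68 (-0.73 to -0.62). For Serping1 it was -1.37 (-1.45 to -1.30) and 0.12 (0.07 to 0.18), and the value at passage 9 was 0.54 in deposited FPKM with 0.1 added.

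C2 and C3 stood on the other side. The log2 fold change of DPCs over DSCs for C2 was 1.43 (0.96 to 2.02) at passage 3 and 2.65 (2.31 to 3.09), or 6.28-fold, at passage 9. In deposited FPKM with 0.1 added the passage 9 value of C2 was 1.88, which did not pass 4-fold. Its passage 3 value was 0.94 with 0.1 added and 0.52 with 1 added, both below 2-fold. For C3 the log2 fold change was 0.34 (-0.13 to 0.83) at passage 3 and 1.33 (1.06 to 1.63) at passage 9. C4b went the opposite way to C2, with -2.06 (-3.06 to -1.39) at passage 3 and -1.27 (-1.64 to -0.93) at passage 9, although both encode substrates of C1s. With total counts in place of TMM the passage 3 value of C4b was -1.98, and with the paralog C4a added it was -1.96, neither of which passed 4-fold. In deposited FPKM with 0.1 added C4b was -0.86 at passage 3 and -0.88 at passage 9. With 1 added it was -0.22 and -0.46, and all of these FPKM values were below 2-fold in size. The FPKM level of C2 over that of C4b was 11.4 in DPCs at passage 3, 6.59 in DPCs at passage 9, 2.29 in DSCs at passage 3 and 0.849 in DSCs at passage 9.

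Cfb and Cd55 did not differ between cell types beyond their counting intervals. For Cfb the log2 fold change of DPCs over DSCs was -0.44 (-1.06 to 0.13) at passage 3 and -0.03 (-0.53 to 0.46) at passage 9, where its sign turned to 0.06 with total counts. For Cd55 it was 0.02 (-0.50 to 0.54) at passage 3 and -0.69 (-1.96 to 0.30) at passage 9.

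A model with passage and cell type as additive terms was the test that 4 libraries allowed. Its residual, with 1 degree of freedom, is the difference between the responses of the cell types and not a spread between cultures. edgeR's quasi-likelihood test with Benjamini-Hochberg adjustment over all 16734 genes called none of the 8 complement genes for passage (adjusted p 0.22 to 0.72), and none of all genes. At an unadjusted p under 0.05 it gave 5 of the 8 (C1ra, C1s1, C3, C4b and Cd55), against 16.9% of all genes. DESeq2 called 2 of the 8 for passage, C1ra (adjusted p = 0.0258) and C1s1 (adjusted p = 0.0155), against 5.71% of all genes, and both were higher at passage 9 in both cell types. For cell type, edgeR's quasi-likelihood test called none of the 8 (adjusted p 0.326 to 0.998) and gave C1s1, C2 and C4b at an unadjusted p under 0.05, against 8.25% of all genes. DESeq2 called C1s1 (adjusted p = 0.0416) and C2 (adjusted p = 0.0404) for cell type, against 2.96% of all genes, with C1s1 higher in DSCs and C2 higher in DPCs.

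Several of the genes share sequence with another gene, so their counts depend on how shared reads were assigned, which is not given in the sources used here. Of the 50-base windows of the longest C1ra transcript, 48% also occur in C1rb, and 24.3% of those of C1s1 occur in C1s2 and 35.2% of those of C4b in C4a. C1ra held 84.6% to 85.7% of the counts of C1ra and C1rb, and C1s1 held 96.8% to 98.0% of the counts of C1s1 and C1s2. C4b held 64.7% to 77.4% of the counts of C4b and C4a. The read-through gene Gm20547 covers 42.8% of the exonic bases of C2 and 79.5% of those of Cfb on the same strand, and its 4 counts were all in DPCs at passage 9. An antisense gene, Gm16567, covers 18.4% of the exonic bases of C1s1, and without strand its reads cannot be told apart from those of C1s1. C3, Serping1 and Cfd had no shared window, and Cd55b, the paralog of Cd55, had 0 counts in every library.

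The other genes of the pathway were taken from a list of 45 symbols, of which 13 entries had 0 counts in every library and 24 passed the filter. In DPCs 4 of the 24 were at least 4-fold higher at passage 9 and 6 at least 4-fold lower, beside 5.58% and 4.36% of all genes. In DSCs 2 were at least 4-fold higher and 0 lower, beside 2.67% and 1.16%. Between cell types at passage 3, 1 was at least 4-fold higher in DPCs and 1 lower, beside 1.52% and 2.77%, and at passage 9, 1 was higher and 5 lower, beside 2.5% and 3.91%. Their median log2 fold change with passage was 0.63 in DPCs, beside 0.03 over all genes, and 0.33 in DSCs, beside 0.00.

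**Figure D4:**
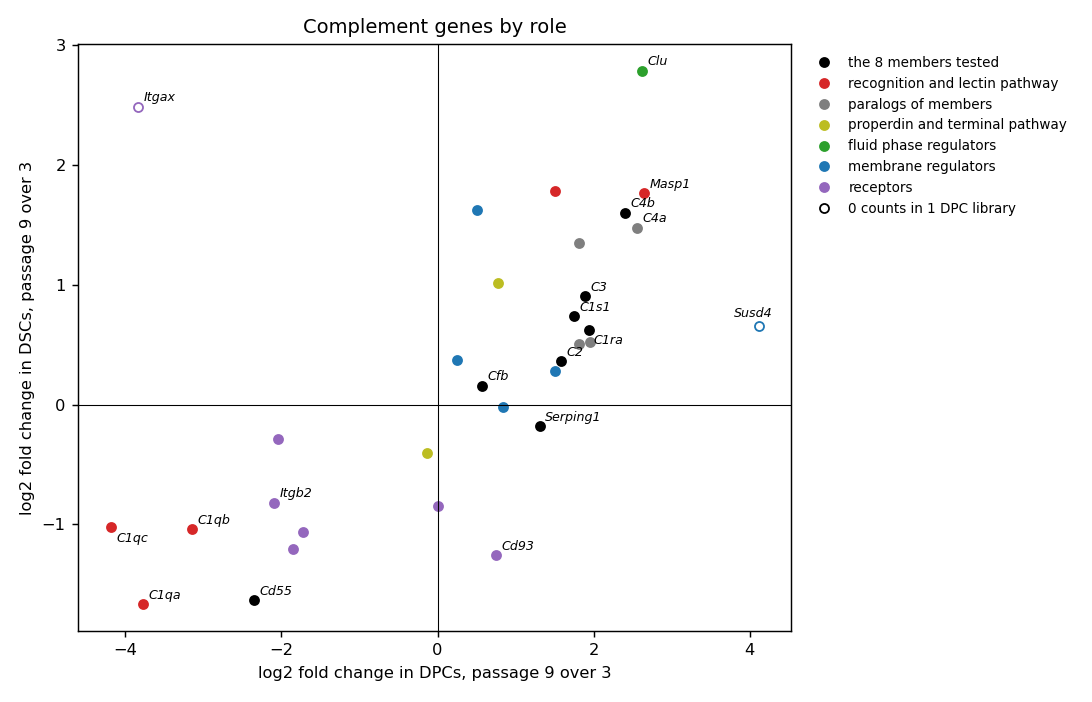
log2 fold change of passage 9 over passage 3 in DPCs (horizontal axis) and in DSCs (vertical axis) for the 8 complement genes with enough counts (black) and the 24 other complement genes (coloured by role), with 1 point per gene and open circles for genes with 0 counts in 1 DPC library, whose position depends on the prior count. C1qa, C1qb and C1qc lie at the lower left with Cd55, and Masp1, Clu and C4a lie at the upper right with C4b.

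The genes of C1q, the recognition part of C1, did not follow its proteases. C1qa had 401 counts in DPCs at passage 3, 27 in DPCs at passage 9, 384 in DSCs at passage 3 and 144 in DSCs at passage 9. C1qb (458, 49, 502 and 292 counts in that order) and C1qc (480, 24, 454 and 267 counts) had the same order of passages. The log2 fold changes with passage were -3.77 for C1qa, -3.14 for C1qb and -4.18 for C1qc in DPCs, and -1.66, -1.04 and -1.02 in DSCs. C1ra and C1s1 were thus higher and all 3 C1q genes lower at passage 9 in both cell types.

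C1q is known to be made mainly by macrophages, and markers of that cell type moved with these genes. All 8 macrophage markers tested, of 9 on the list, were lower at passage 9 in both cell types, 4 of them at least 4-fold in DPCs, beside 4.36% of all genes, and 1 in DSCs, beside 1.16%. Their summed level was 124 CPM in DPCs at passage 3, 65.8 in DPCs at passage 9, 176 in DSCs at passage 3 and 95.7 in DSCs at passage 9, most of it from Lyz2. No defining macrophage marker was at 0 in every library, and Ptprc had 70, 22, 116 and 18 counts in the same order. Of 7 receptor entries tested, 5 were at least 2-fold lower in DPCs at passage 9, beside 15% of all genes, while Cd93 was higher (0.75) and 1 Itgam entry had 0 counts in both DPC libraries. Among the 5 was Itgb2, an integrin subunit of leukocytes, with 137 and 30 counts in DPCs (log2 fold change -2.09) and 241 and 163 in DSCs (-0.82). The part of macrophage RNA in these results was not tested, and fewer cells of a type cannot be told apart from less RNA per cell in such bulk libraries.

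Masp1, which encodes a protease of the lectin pathway that resembles C1r and C1s, had the highest mean FPKM of the other complement genes, 98.2. It had 2918 counts in DPCs at passage 3, 17780 in DPCs at passage 9, 5563 in DSCs at passage 3 and 22686 in DSCs at passage 9. Its log2 fold change with passage was 2.64 in DPCs and 1.76 in DSCs. It was highest at passage 9 in both cell types, as were the paralogs C4a (7, 49, 23 and 81 counts, log2 fold changes 2.55 and 1.48) and C1rl (455, 1557, 542 and 1658 counts, 1.81 and 1.34).

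Of the fluid-phase regulators, Clu, which encodes clusterin, had 217 counts in DPCs at passage 3, 1308 in DPCs at passage 9, 136 in DSCs at passage 3 and 1139 in DSCs at passage 9, with log2 fold changes of 2.62 in DPCs and 2.78 in DSCs. Of the membrane regulators, Cr1l, the mouse regulator Crry, had a mean FPKM of 26.7 and 1810, 3145, 2249 and 2664 counts, with log2 fold changes with passage of 0.83 in DPCs and -0.02 in DSCs. Cd59a, which encodes an inhibitor of the membrane attack complex, had 592, 686, 910 and 1413 counts, with log2 fold changes of 0.25 and 0.37. The 2 listed membrane regulators with the highest FPKM therefore did not have the pattern of Cd55. Susd4, a membrane inhibitor, had 0 and 30 counts in DPCs, at least 10.3-fold higher at passage 9 against a floor of 3 counts, and 3 and 7 counts in DSCs.

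Among the receptors, Itgax had 25 and 0 counts in DPCs, at least 8.13-fold lower at passage 9, and 6 and 51 in DSCs. Itgam, the integrin subunit of complement receptor CR3, was uncertain, because 2 gene IDs carry its symbol: ENSMUSG00000030786 had 146, 33, 32 and 31 counts and ENSMUSG00000108596 had 0, 0, 118 and 78. The terminal pathway had few counts. C6, C7, C8a, C8b and C9 had 0 counts in every library, C8g had 18 to 46 counts, and Hc, which encodes C5, had 2 counts in DSCs at passage 9. Properdin, encoded by Cfp, had 143, 127, 125 and 113 counts.

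Cytokines and factors known to act on complement genes were listed as well, and 11 of 15 passed the filter. Of these, 0 were at least 4-fold higher at passage 9 in either cell type, beside 5.58% of all genes in DPCs and 2.67% in DSCs. In DSCs 0 were at least 4-fold lower, beside 1.16% of all genes, and in DPCs 1 was, beside 4.36%. This was Il6, a cytokine of the acute-phase response, with 51 counts at passage 3 and 0 at passage 9 in DPCs (at least 16.6-fold lower) and 53 and 129 in DSCs. Socs3, a target of that signal, had log2 fold changes with passage of 0.71 in DPCs and 1.56 in DSCs, and Cebpd, a C/EBP factor, 0.11 and 1.29. The part of these factors in the complement values was not tested.

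The 3 genes whose pattern over the 4 libraries was nearest to that of C3, by Euclidean distance of centred log2 CPM among 12191 genes averaging 100 raw counts or more, were Psd (0.05), Kdm7a (0.19) and Nap1l2 (0.20). The nearest complement gene was C1rl, at rank 528. With 4 libraries such likeness is a description of these values.

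The labelled cell types were checked against their known markers. Mesenchymal genes were abundant in every library, with Col1a1 between 43703 (DPCs at passage 9) and 405062 counts (DSCs at passage 3). The fibroblast and mesenchyme list summed to 18839 and 7469 CPM in DPCs at passage 3 and 9 and to 27666 and 24657 CPM in DSCs. Of the dermal papilla markers, Sox2 was higher in both DPC libraries (1677 and 1491 counts) than in both DSC libraries (269 and 178). No other papilla marker that passed the count filter was higher in DPCs at both passages. Ncam1 was higher in both DSC libraries (310 and 342 CPM) than in both DPC libraries (99.0 and 46.7). Vcan was higher in DSCs at passage 3 (139 CPM against 112) and higher in DPCs at passage 9 (96.1 CPM against 64.0). Crabp1 had 609, 407, 40.1 and 448 CPM in DPCs at passage 3 and 9 and DSCs at passage 3 and 9. All 5 dermal sheath and smooth muscle markers were higher in DPCs than in DSCs at passage 3, with Acta2 at 7127 and 5731 CPM, and 4 of the 5 were lower in DPCs than in DSCs at passage 9. Of the remaining papilla markers, Alpl had 6 to 23 counts, Corin 0 to 10 and Prom1 0 to 7. Lef1 was higher in DPCs at passage 3 (508 counts against 101) and lower at passage 9 (2 against 55). Of 6 papilla markers tested, 3 were at least 4-fold higher in DPCs at passage 3, beside 1.52% of all genes, and 0 lower, beside 2.77%. At passage 9, 1 was higher, beside 2.5%, and 2 were lower, beside 3.91%. Keratinocyte markers summed to 1.31 to 2.07 CPM, with Krt5, Krt14, Krt15 and Cdh1 at 0 in every library, and hepatocyte markers to at most 0.251 CPM. Endothelial markers summed to 1.21 to 7.89 CPM. Of 9 adipocyte markers, 5 were at 0 in every library (Adipoq, Plin1, Cidec, Lep and Retn), as was Cfd. The other 4, which are not limited to adipocytes, were detected, with Lpl at 1293, 420, 5580 and 2238 counts, Cebpa at 295 to 604, Pparg at 68 to 421 and Fabp4 at 26 to 89. The adipocyte list summed to 52.3 and 24.7 CPM in DPCs at passage 3 and 9 and to 175 and 64.9 CPM in DSCs.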

How the data were processed

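RNA of DPCs and DSCs at passage 3 and passage 9 was sequenced as 1 library each (4 libraries), and groups were taken from the labels. The authors deposited whole-number raw counts per gene and, for each library, FPKM, which they had normalised for transcript length and depth. The study's methods give poly-T selection and paired-end sequencing, while the labels name another kit. The submitters' processing notes list Bowtie 0.12.2 and builds mm8 and mm9, but 94.1% of the 51633 gene IDs found in GENCODE M21 had its GRCm38 positions. The counting program and its use of strand are not given in the sources used here.

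Library totals were 35340038 (DPCs, passage 3), 34981284 (DPCs, passage 9), 38780425 (DSCs, passage 3) and 47604059 counts (DSCs, passage 9). Low counts were more often even than odd (1339 genes with 2 and 583 with 3 counts in DPCs at passage 3), as would follow if both mates of a pair were counted, which was not tested and would make the intervals too narrow. Intervals were therefore also computed on halved counts. With passage in DPCs, 8 of the 8 intervals excluded 0, and 7 did with halved counts, while the numbers in the other comparisons (6, 5 and 6) did not change. The share of all genes tested whose interval excluded 0 was not computed, so these numbers have no background beside them. Genes averaging at least 10 raw counts were kept. Fold changes were differences of log2 CPM (TMM, prior count 2) in edgeR 4.0.16 (R 4.3.3, limma 3.58.1), called at 4-fold and at 2-fold. Intervals were exact binomial, 95%, and the floor was 3 counts. Additive models used the quasi-likelihood test of edgeR, and DESeq2 1.42.0 as an alternative. Only the edgeR test was also run on simulated counts, in which the cell types did not differ in response. That run cannot show how either model behaves on these libraries. The alternatives were total counts, DESeq2 size factors, upper-quartile scaling, other prior counts and filters, halved counts, sums with paralogs and deposited FPKM with 0.1 or 1 added. Named were the 9 genes, other complement genes past 4-fold in any pairwise contrast or with the highest FPKM (12 in all), and the 3 genes most like C3. C1rl, Cfp, Hc, Socs3, Cebpd, Ptprc and the terminal pathway genes were named after their values were seen. The members and lists were chosen with earlier results of these data known. Columns of other samples numbered 0. The authors' comparison columns were not used. A gene of the pathway list is not reported here.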

Additional observations from a re-analysis of the deposited data

Results flagged for a closer look

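In 5 of the listed complement genes and their known regulators, the log2 fold change with passage had opposite signs in DPCs and DSCs and both counting intervals excluded 0. The 5 came from the 8 complement genes, 24 other complement entries and 11 regulators that passed the filter. The share of all genes tested that met this rule was not computed, so the number has no background beside it. With 1 library per group the difference between the cell types was not tested. Serping1, which encodes C1 inhibitor, had 1.31 in DPCs and -0.18 in DSCs. Itgax, a leukocyte integrin subunit, had -3.83 in DPCs, a value that depends on the prior count because DPCs at passage 9 had 0 counts, and 2.48 in DSCs. Cd93, a receptor of endothelial and myeloid cells, had 0.75 in DPCs and -1.26 in DSCs. Il6 had -4.81 in DPCs, again with 0 counts at passage 9, and 0.99 in DSCs. Irf1, an interferon-response factor, had -0.38 in DPCs and 0.84 in DSCs.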

How the results depend on the processing

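The number of genes at least 4-fold different with passage in DPCs was 1663, and was 2622 with no filter, 758 with a minimum mean count of 100 and 354 in FPKM with 1 added. In DSCs it was 640, and was 339 with a prior count of 10, 1254 with no filter, 210 with the minimum of 100, and 350 and 72 in FPKM with 0.1 and 1 added. Between cell types at passage 3 it was 719, and was 400 with a prior count of 10, 1319 with no filter, 301 with the minimum of 100, and 392 and 96 in FPKM with 0.1 and 1 added. At passage 9 it was 1074, and was 712 with a prior count of 10, 1805 with no filter, 458 with the minimum of 100 and 211 in FPKM with 1 added. Of the 8 complement genes, the 2 past 4-fold with passage in DPCs became 1 with a prior count of 10 (C4b), 1 with the minimum of 100, where Cd55 and Cfb could not be given, 1 in FPKM with 0.1 added (Cd55) and 0 in FPKM with 1 added. The 1 past 4-fold between cell types at passage 3 (C4b) became 0 with total counts, a prior count of 10, halved counts and both FPKM settings, and the 1 at passage 9 (C2) became 0 in both FPKM settings. The 6 at least 2-fold higher in DPCs became 4 in FPKM with 1 added, where C4b and C3 were below 2-fold. The 1 at least 2-fold higher in DSCs (C4b) became 0 in FPKM with 1 added. The additive model called 0 genes for passage with edgeR and 955 with DESeq2, of which 2 were complement genes. For cell type it called 0 genes, 5 with DESeq2 size factors, 13 with the minimum of 100 and 496 with DESeq2, of which 2 were complement genes. A larger pseudocount or filter acts on low counts by construction, and otherwise the cause was not tested. Of 328 recomputed fold changes of the 8 genes, 286 lay within their counting interval and 42 outside, and the sign turned for Cfb at passage 9 (0.06 with total counts) and for Cd55 at passage 3 (-0.00 with halved counts). No paired analysis was possible because each group had 1 library and the labels number no replicates to pair, although the additive model compares the passages within each cell type. For the same reason no library could be left out. Depth limited Cd55 and C4b in DPCs, with 11 and 16 counts in their lowest libraries, and Cfb.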
